A study of Mus musculus with 6 samples.

Results

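Caveolae are small flask-shaped pits of the plasma membrane, and the genes of their protein coat were examined in the stromal populations of the mouse omentum. The coat genes were *Cav1*, *Cav2*, *Ptrf* (cavin 1), *Sdpr* (cavin 2), *Ehd2* and *Pacsin2*, 6 of the 23352 genes listed in the files. They were selected by name, and the choice was made with the FPKM values of these same 6 libraries already known. All differences between populations given here are therefore descriptions of the values that chose the genes.

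RNA-seq was performed on 6 populations (P1–P6) sorted from the omentum of WT C57BL/6 mice, for which no treatment is named, with 1 library per population. P1 was CD45-CD140a+CD105+ with high activity of aldehyde dehydrogenase (ALDH, the enzyme activity that the study used to find cells able to make retinoic acid). P2 and P3 had the same surface markers with intermediate and low ALDH activity. P4 and P5 lacked CD105 (CD45-CD140a+CD105-) and likewise had intermediate or low ALDH activity, and P6 was CD45-CD140a low and ALDH positive. The number, age, sex and pooling of the mice are not given in the sources used here. With 1 library per population, no test between populations was possible, and no difference below has a replicate check. Values are FPKM, reads per kilobase of transcript scaled to the number of mapped reads, so that levels of different genes can be set side by side within a library.

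The libraries held an estimated 36.9 M (P6) to 61.6 M (P5) reads, and FPKM values summed to between 384939 (P6) and 407807 (P1). The gene of CD105, *Eng*, had 42.6 to 52.4 FPKM in P1–P3 and at most 0.728 FPKM in P4–P6. *Pdgfra*, the gene of CD140a, had 117 to 154 FPKM in P1–P5 and 5.36 FPKM in P6, and *Ptprc*, the gene of CD45, was at or below 0.755 FPKM in every library. The CD140a low cells of P6 held the highest levels of 11 of 11 mesothelial markers, among them *Upk3b* with 1140 FPKM and *Msln* with 171 FPKM. The share of all genes highest in P6 was not counted, and *Krt8*, *Krt18* and *Krt7* reached a mean of 1 FPKM only through P6. Ratios between 2 libraries are given with a 95% exact interval computed from estimated reads, which covers counting error only. Coat genes had between 158 and 83630 estimated reads per library.

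As background, caveolins are hairpin membrane proteins that bind cholesterol and form the scaffold of the pit, and cavins are cytoplasmic proteins that assemble on the caveolins and are needed for the pit to form. EHD2 is an ATPase at the neck that holds caveolae at the cell surface, and pacsin 2 is an F-BAR protein that bends the membrane. Caveolae are abundant in mesothelial cells, endothelial cells, adipocytes, smooth muscle and many fibroblasts, where they buffer membrane tension and take part in lipid uptake and signaling.

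All 6 coat genes had their highest level in P6, and the share of all genes highest there was not counted. *Cav1*, *Cav2* and *Sdpr* were at least 2-fold higher there than the mean of P1–P5, by 5.13-fold, 4.75-fold and 8.08-fold, whereas *Ptrf* was 1.95-fold, *Pacsin2* 1.50-fold and *Ehd2* 1.24-fold higher. Among the 12053 genes with a mean of at least 1 FPKM, 9.34% were at least 2-fold higher in P6 and 9.33% at least 2-fold lower, and 3 of the 6 coat genes were higher and 0 lower. The coat genes were picked with this pattern in view, so nothing is read from either count. The median log2 difference was 1.59 over the coat genes and 0.07 over all genes tested (log2 of FPKM + 0.1). In sorted bulk samples, fewer cells of a type and less RNA per cell cannot be told apart.

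**Figure D1:**
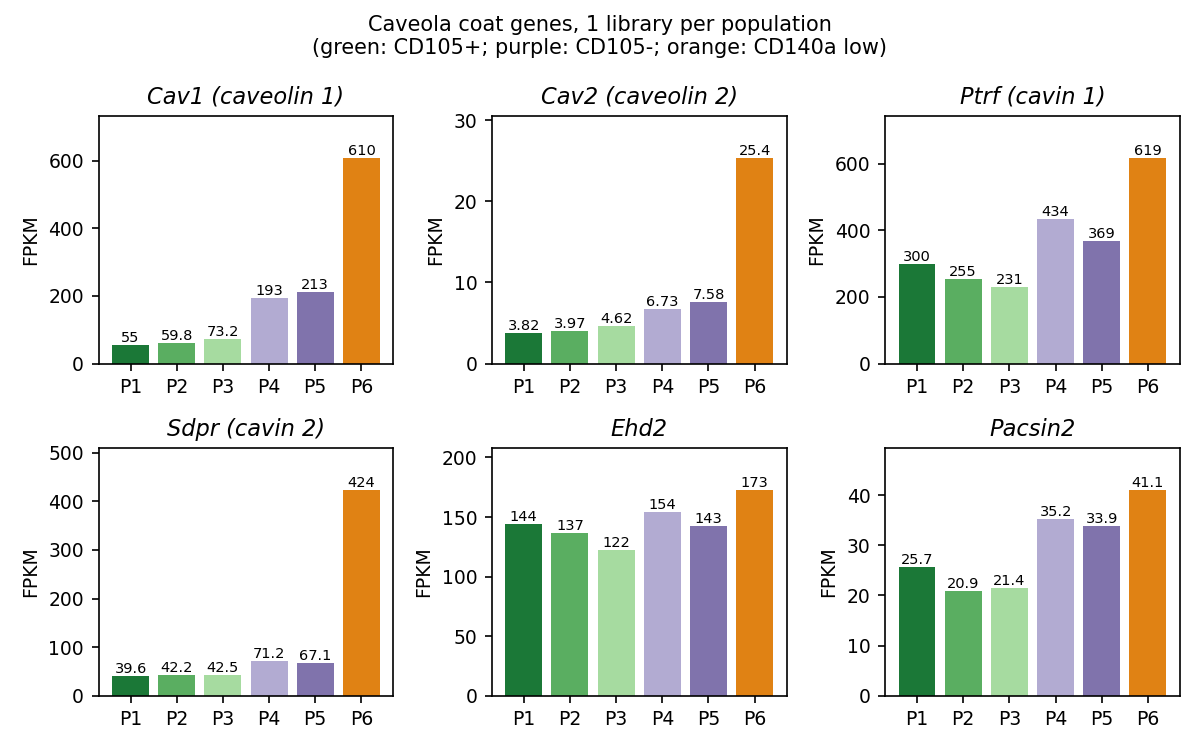
FPKM of the 6 caveola coat genes (vertical axes, starting at 0, each gene with its own scale) in the 6 populations (horizontal axes, 1 library each, value above each bar). P6 is the highest bar in every panel, by a wide margin for *Cav1* (610 FPKM), *Cav2* (25.4 FPKM) and *Sdpr* (424 FPKM) and by a small one for *Ehd2* (173 FPKM).

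*Cav1*, the caveolin that is required for caveolae outside striated muscle, had 55.0, 59.8, 73.2, 193, 213 and 610 FPKM from P1 to P6. The CD105+ populations were thus lowest, the CD105- populations were intermediate and P6 stood alone at the top. P6 exceeded P5, the next in order, 2.86-fold (interval 2.80 to 2.93), and the highest library exceeded the lowest 11.1-fold. Each step of the order was larger than counting error, down to P2 over P1 at 1.09-fold (1.03 to 1.15). Even in P1, *Cav1* lay at percentile 95 of all genes of the library, and in P6 at percentile 99.7.

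*Cav2*, which encodes the caveolin that forms oligomers with caveolin 1, had 3.82, 3.97, 4.62, 6.73, 7.58 and 25.4 FPKM from P1 to P6. The populations fell in the same order as for *Cav1*. P6 exceeded P5 3.35-fold (2.95 to 3.81), but the neighbors P5 and P4, P3 and P2, and P2 and P1 did not differ beyond counting error. In the CD105+ libraries *Cav1* was 14.4 to 15.8 times as high as *Cav2* on the FPKM scale. In P4 and P5 it was 28.7 and 28.1 times as high, and in P6 it was 24.0 times as high.

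The genes of both caveolins lie on the same strand of chromosome 6 in the mouse. In the GENCODE annotation of GRCm38, *Cav2* occupies chr6:17281185-17289115 and *Cav1* chr6:17306335-17341452, with 17.2 kb between the end of the first and the start of the second. Their promoters are shown because the 2 neighboring genes shared an order across all 6 libraries. The sequences are the 250 bases before the RefSeq start site (GRCm38.p6, plus strand), at chr6:17306085-17306334 for *Cav1* and chr6:17280935-17281184 for *Cav2*. Capitals mark every match, on either strand, to the TATA box (TATAAA), the CAAT box (CCAAT), the GC box core (GGGCGG), the site bound by Fos and Jun (TGANTCA), the site of GATA factors (GATAA) or the E box (CANNTG).
Cav1: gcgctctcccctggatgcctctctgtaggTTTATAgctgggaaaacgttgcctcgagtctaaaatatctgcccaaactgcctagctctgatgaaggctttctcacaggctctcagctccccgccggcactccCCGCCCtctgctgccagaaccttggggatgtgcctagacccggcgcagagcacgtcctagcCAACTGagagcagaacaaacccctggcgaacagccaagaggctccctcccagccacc
Cav2: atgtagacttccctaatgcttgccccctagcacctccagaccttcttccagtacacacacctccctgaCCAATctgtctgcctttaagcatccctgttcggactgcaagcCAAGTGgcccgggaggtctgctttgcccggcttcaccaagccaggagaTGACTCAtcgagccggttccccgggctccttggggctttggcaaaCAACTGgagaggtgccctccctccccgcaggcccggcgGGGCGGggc
The *Cav1* window held TATAAA (reverse strand, 221 bases upstream), GGGCGG (reverse strand, 118 bases upstream) and CANNTG (57 bases upstream). The *Cav2* window held CCAAT (182 bases upstream), TGANTCA (92 bases upstream), GGGCGG (9 bases upstream) and CANNTG at 140 and 47 bases upstream. The GC box core and the E box were the motifs that both windows held. Over 32841 RefSeq promoters of the same length, TATAAA was found in 12.4%, CCAAT in 33.9%, GGGCGG in 32.7%, TGANTCA in 6.75%, GATAA in 22.6% and CANNTG in 66.2%. These matches describe the letters of the windows and were not tested against any binding data. No matches overlapped in the windows shown.

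*Ptrf* encodes cavin 1, the cavin without which caveolae do not form, and lies at chr11:100956733-100970887 (minus strand). It had 300, 255, 231, 434, 369 and 619 FPKM from P1 to P6. It was the most abundant coat transcript in each library, between percentiles 99 and 99.7 of all genes, and its highest and lowest libraries differed 2.68-fold. P6 exceeded P4 1.42-fold (1.41 to 1.44). *Ptrf* lay just below the 2-fold limit in P6 (log2 difference 0.96), and it passed the limit with a common FPKM sum (1.02), with quantile normalization (1.12), and when P4 (1.10) or P5 (1.02) was left out of the mean.

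*Sdpr* encodes cavin 2, a cavin that helps to shape the caveola membrane, and lies at chr1:51289126-51302960 (plus strand). It had 39.6, 42.2, 42.5, 71.2, 67.1 and 424 FPKM from P1 to P6. P1–P3 were nearly level, P4 and P5 lay somewhat above them, and P6 was far from all others. The step from P4 to P6 was 5.96-fold (5.84 to 6.08), the widest gap between neighbors of any coat gene, whereas P3 and P2 did not differ beyond counting error (interval of the ratio 0.973 to 1.04). In P1 there were 7.57 times as many *Ptrf* as *Sdpr* transcripts by FPKM, in P2–P5 there were 5.43 to 6.10 times as many, and in P6 there were 1.46 times as many.

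The promoter of *Sdpr*, the coat gene with the largest difference in P6, is shown in the same way (GRCm38.p6, plus strand, chr1:51288876-51289125).
Sdpr: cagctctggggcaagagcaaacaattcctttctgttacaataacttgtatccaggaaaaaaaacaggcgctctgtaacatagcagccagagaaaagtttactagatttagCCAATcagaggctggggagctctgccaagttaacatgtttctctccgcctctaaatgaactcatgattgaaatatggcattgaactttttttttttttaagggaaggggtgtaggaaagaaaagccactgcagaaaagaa
This window held 1 of the 6 motifs, CCAAT at 140 bases upstream of the start. Its GC content was 40.4%, against 59.6% for the *Cav1* window, 62% for the *Cav2* window and a median of 52.4% over all promoters.

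*Ehd2*, the gene of the neck ATPase (chr7:15946958-15967567, minus strand), was almost level among the populations. It had 144, 137, 122, 154, 143 and 173 FPKM from P1 to P6. The highest and lowest libraries differed 1.42-fold, and P1 and P5 did not differ beyond counting error (interval of the ratio 0.995 to 1.02). *Pacsin2*, the F-BAR member (chr15:83375607-83464606, minus strand), had 25.7, 20.9, 21.4, 35.2, 33.9 and 41.1 FPKM from P1 to P6. P4–P6 were above P1–P3, with a 1.96-fold range, and the neighbors P4 and P5, and P3 and P2, did not differ beyond counting error. Of the *Pacsin2* promoter windows, the first is shown for comparison with that of *Sdpr*, since *Pacsin2* stayed within 2-fold (GRCm38.p6, minus strand, chr15:83464607-83464856).
Pacsin2: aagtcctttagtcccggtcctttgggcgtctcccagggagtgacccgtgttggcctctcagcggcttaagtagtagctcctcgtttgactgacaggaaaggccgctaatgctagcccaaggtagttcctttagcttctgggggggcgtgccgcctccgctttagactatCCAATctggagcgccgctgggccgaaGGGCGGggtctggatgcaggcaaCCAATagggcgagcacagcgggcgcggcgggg
It held CCAAT at 81 and 32 bases upstream and GGGCGG at 55 bases upstream, with a GC content of 62%. The other *Pacsin2* windows held neither of these motifs and had a GC content of 46.4% and 50.8%. CCAAT was thus present in the windows shown for *Cav2*, *Sdpr* and *Pacsin2*, and it was also found in those of *Ptrf* and *Ehd2*, which are not shown. Of all promoters 33.9% held it. The *Ptrf* window lay wholly within the GENCODE gene, so its match was not upstream of the GENCODE start. The *Ehd2* window overlapped the GENCODE start of its gene.

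The closest relatives of the coat genes were either near 0 or differed little in P6. *Cav3*, the caveolin of striated muscle, was at or below 0.305 FPKM in every library, and *Murc*, the muscle cavin, was listed at 0 in all 6 libraries. *Prkcdbp*, which encodes cavin 3, had 197, 155, 140, 198, 177 and 194 FPKM from P1 to P6. Its level in P6 was within counting error of that in P1 and in P4, and its log2 difference of P6 over the mean of the others was 0.16. The cavin genes therefore spanned 0.16 (*Prkcdbp*) to 3.01 (*Sdpr*) in that contrast.

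*Ehd1*, an EHD ATPase of recycling endosomes, had 65.9 to 83.2 FPKM. *Ehd3* had 0.995 to 2.40 FPKM, *Ehd4* 5.20 to 7.63 FPKM, *Pacsin3* 3.09 to 5.74 FPKM, and *Pacsin1*, the neuronal pacsin, at most 0.245 FPKM. *Ehd2* and *Pacsin2* were thus the most abundant genes of their families in all 6 libraries. Of the EHD and pacsin relatives with a mean of at least 1 FPKM, 0 of 4 were 2-fold higher or lower in P6. Of all genes 9.34% were higher and 9.33% lower, so little can be read from 4 genes.

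**Figure D2:**
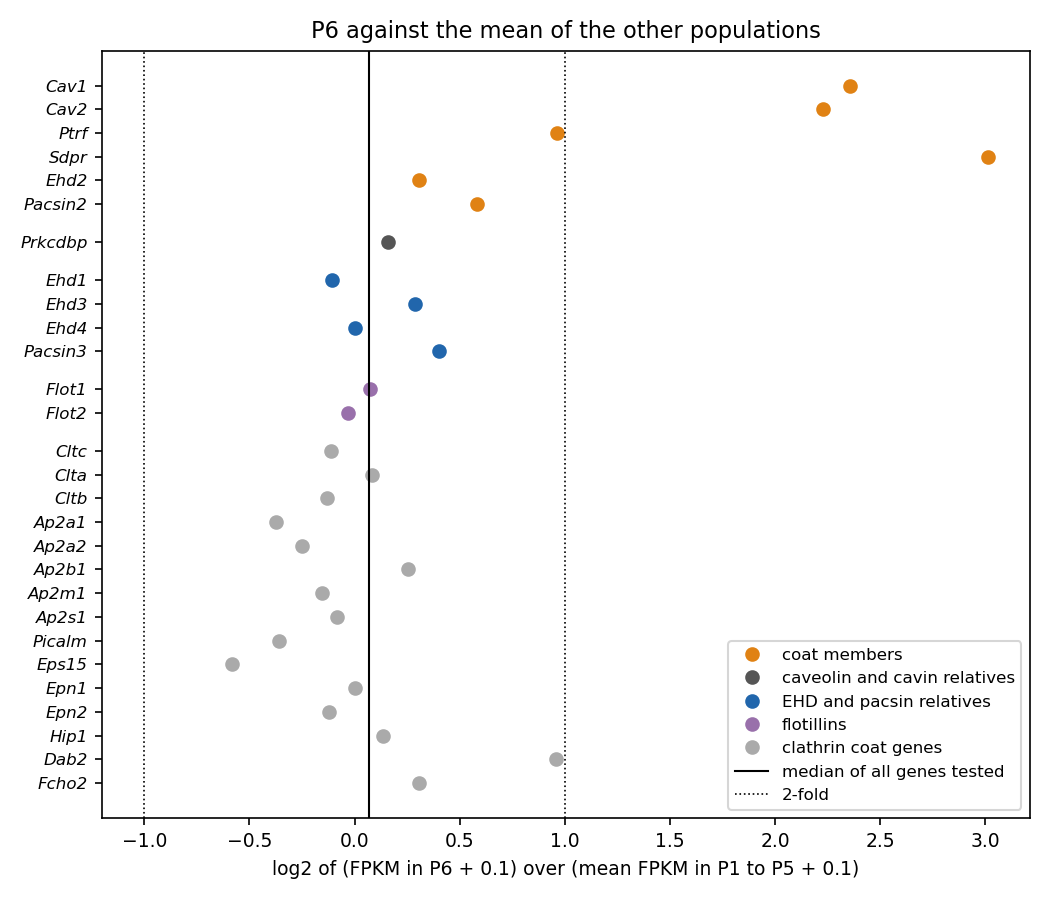
Log2 difference between P6 and the mean of P1–P5 (horizontal axis, FPKM + 0.1) for the coat genes, their relatives, the flotillins and the clathrin coat genes with a mean of at least 1 FPKM, 1 point per gene. *Sdpr* (3.01), *Cav1* (2.36) and *Cav2* (2.23) lie beyond the dotted 2-fold line, and *Ptrf* (0.96) and the clathrin adaptor gene *Dab2* (0.96) lie just inside it.

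Genes of other membrane coats were compared in P6. *Flot1* and *Flot2*, the genes of the flotillins that mark another class of membrane domain, had 38.1 to 64.4 and 38.0 to 50.5 FPKM. Of 15 clathrin coat genes with a mean of at least 1 FPKM, 0 were 2-fold higher and 0 were 2-fold lower in P6, against 9.34% and 9.33% of all genes, with a median log2 difference of -0.11. Their extremes were *Eps15*, an endocytic scaffold gene (-0.59), and *Dab2*, a cargo adaptor gene (0.96). *Eps15* had 19.6 to 23.5 FPKM in P1–P3, 52.8 and 61.2 FPKM in P4 and P5, and 23.8 FPKM in P6.

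The CD105- populations exceeded the CD105+ populations at matched ALDH activity for all 6 coat genes, although *Ehd2* turned to the opposite direction when libraries were divided by *Gapdh*. The excess was greatest for *Cav1*, with a P4 to P2 ratio of 3.23 (3.09 to 3.37) and a P5 to P3 ratio of 2.91 (2.80 to 3.02). *Cav2*, *Ptrf*, *Sdpr* and *Pacsin2* had nearly the same ratio, from 1.68 to 1.70 at intermediate ALDH activity and from 1.58 to 1.64 at low activity, while *Ehd2* was at 1.13 and 1.17. In the P2 to P4 comparison, 1 of the 6 coat genes was at least 2-fold lower in the CD105+ population, against 7.33% of all genes, and in the P3 to P5 comparison 1 of 6, against 6.11%. That gene was *Cav1* in both. In both comparisons 10 of 11 mesothelial and 12 of 12 pancreatic acinar markers were also at least 2-fold lower in the CD105+ population, and their part in the differences was not tested.

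When libraries were divided by *Gapdh*, which was higher in P4 and P5 than in P2 and P3, the median of all genes moved by 0.46 (P2 over P4) and 0.53 (P3 over P5). *Ehd2* then turned to a log2 difference of 0.30 for P2 over P4 and 0.31 for P3 over P5. *Cav1* stayed lower in the CD105+ populations under the 4 scalings tried, with log2 differences of -1.66 to -1.22 for P2 over P4 and -1.61 to -0.998 for P3 over P5. *Cav2*, *Ptrf*, *Sdpr* and *Pacsin2* stayed lower too, but their smallest differences under these scalings were -0.29 to -0.28 for P2 over P4. For P3 over P5 the smallest were -0.17 to -0.12.

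**Figure D3:**
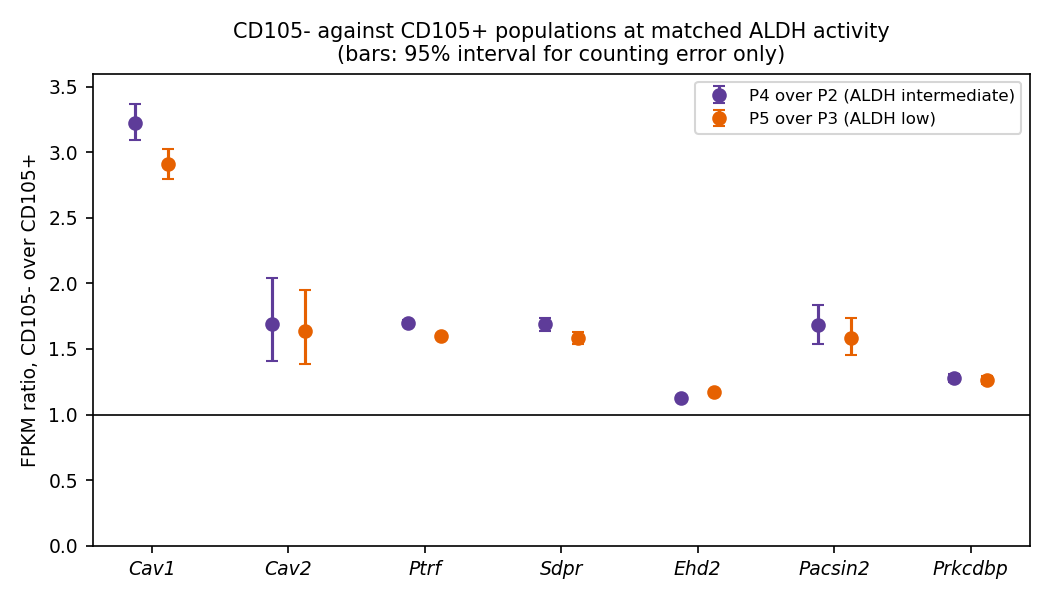
FPKM in a CD105- population divided by FPKM in the CD105+ population of matched ALDH activity (vertical axis, from 0) for the coat genes and *Prkcdbp*, with 1 library per population and bars for the 95% interval of counting error. *Cav1* stands near 3, *Cav2*, *Ptrf*, *Sdpr* and *Pacsin2* lie between 1.58 and 1.70, and *Ehd2* lies closest to 1, the black line.

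Between populations of different ALDH activity within a CD105 class, 0 of 6 coat genes were past 2-fold. Few genes of any kind were: 0.796% of all genes tested were at least 2-fold higher and 4.25% lower for P1 over P2, 0.996% and 2.61% for P2 over P3, and 3.80% and 1.24% for P4 over P5. The coat genes had median log2 differences of 0.01, -0.02 and 0.07 in these contrasts. *Cav1* was somewhat higher at lower ALDH activity in both CD105 classes, with log2 differences of -0.29 for P2 over P3 and -0.14 for P4 over P5. *Ptrf* went the other way, at 0.15 and 0.24. P1, the ALDH high population, was the lowest for *Cav1*, *Cav2* and *Sdpr*. Against the mean of the 5 others these 3 of 6 coat genes were at least 2-fold lower, against 11.0% of all genes. This count depended on P6: without it *Cav2* was at -0.57 and *Sdpr* at -0.49 on the log2 scale, both within 2-fold.

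The order of P1–P3 below P4 and P5, and these below P6, was looked for after the values had been seen. It held for *Cav1*, *Cav2*, *Ptrf*, *Sdpr* and *Pacsin2*, 5 of the 6 coat genes, and for 18.6% of all genes tested. *Ehd2* missed it because P1 lay above P5. After division by *Gapdh* 3 coat genes had the order, *Cav1*, *Cav2* and *Sdpr*, against 5.89% of all genes. All 6 had it with a common FPKM sum (18.9% of all genes) and with quantile normalization (12.6%), and 5 with the median of ratios (13.4%).

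The make-up of the coat transcripts differed among populations. Summed over the 6 genes, FPKM was 568, 519, 494, 894, 833 and 1892 from P1 to P6. *Cav1* made up 9.69%, 11.5%, 14.8%, 21.6%, 25.5% and 32.2% of this sum from P1 to P6. *Ptrf* went from 52.8% in P1 to 32.7% in P6, and *Ehd2* from 25.4% to 9.15%. *Sdpr* was between 6.98% and 8.59% in P1–P5 and reached 22.4% in P6. These shares do not change when a library is scaled by 1 common factor.

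Relative to *Cav1* in the same library, *Ptrf* stood at 5.45, 4.27, 3.15, 2.25, 1.73 and 1.02 from P1 to P6. Cavin 1 transcripts thus outnumbered *Cav1* transcripts by FPKM in the CD105+ populations and matched them in P6. *Ehd2* went from 2.62 times *Cav1* in P1 to 0.284 times in P6, and *Pacsin2* from 0.467 to 0.0675 times. *Sdpr* did not follow this line, at 0.720 in P1, 0.315 in P5 and 0.696 in P6.

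**Figure D4:**
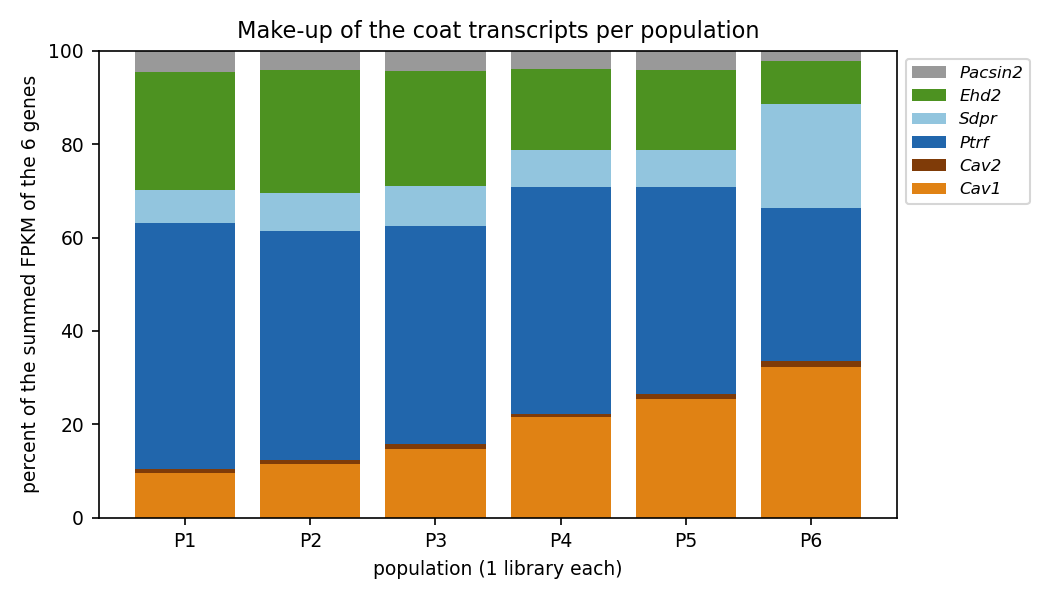
Share of each coat gene in the summed FPKM of the 6 genes (vertical axis, percent) in each population (1 library each). The *Cav1* share widens from 9.69% in P1 to 32.2% in P6, the *Sdpr* share is wide in P6 alone (22.4%), and the *Ehd2* share narrows to 9.15%.

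Lists of partners of caveolae were counted in P6 in the same way, where 9.34% of all genes were higher and 9.33% lower. Of 7 neck and dynamics genes with a mean of at least 1 FPKM, 0 were 2-fold higher in P6 and 2 were lower, *Dnm1*, which encodes a dynamin that cuts vesicles from the membrane (log2 difference -1.68), and *Fyn*, which encodes a kinase that phosphorylates caveolin 1 (-2.16). Of 17 receptors, channels and enzymes linked to caveolae, 2 were higher and 4 lower. The higher ones were *Atp2b4*, a plasma membrane calcium pump gene (1.61), and *Cd36*, a fatty acid receptor gene (1.32). Those lower were *Egfr* (-1.04), *Pdgfrb* (-2.44), *Pdgfra* (-4.67), on whose protein P6 was gated, and *Plvap*, the gene of the protein of caveolar diaphragms (-1.47). *Plvap* had 21.4 FPKM in P3 and 26.8 in P5, the ALDH low populations, against 3.73 to 10.1 FPKM in the others.

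Caveolae hold cholesterol, and genes of its uptake, synthesis and efflux were examined for that reason. Of 18 with a mean of at least 1 FPKM, 0 were 2-fold higher in P6 and 2 were lower, *Sqle*, an enzyme gene of synthesis (-1.41), and *Insig1*, a gene of sterol sensing (-1.05), with a median of -0.33 over the list. Caveolae also flatten when membranes are stretched. Against the same shares of all genes, of 10 YAP target and stretch-response genes, 2 were higher in P6, *Ajuba*, a LIM protein gene of cell junctions (2.94), and *Piezo1*, the gene of a stretch-activated channel (1.56), and 0 were lower, with a median of 0.55.

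Marker lists of other cell types were counted in P6 in the same way, against 9.34% of all genes higher and 9.33% lower. Mesothelial markers summed to 76.2, 97.7, 155, 1033, 834 and 3241 FPKM from P1 to P6, and 10 of 11 were at least 2-fold higher in P6. Of these, *Krt8*, *Krt18* and *Krt7* were at or below 2.04 FPKM in P1–P5 and reached a mean of 1 FPKM only through P6. *Upk3b* in P4 was 33.6% of its level in P6, close to *Cav1* at 31.6% and *Cav2* at 26.5%, whereas *Msln* (4.01%) and *Krt18* (2.23%) were far lower and *Ptrf* (70.2%) and *Ehd2* (88.9%) far higher. In P1 the coat genes remained at 9.02% (*Cav1*) to 83.3% (*Ehd2*) of their level in P6, while mesothelial markers other than *Wt1* (23.8%) were at 0.0742% (*Msln*) to 1.40% (*Gpm6a*). The part of mesothelial cells in the differences of the coat genes was not tested.

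**Figure D5:**
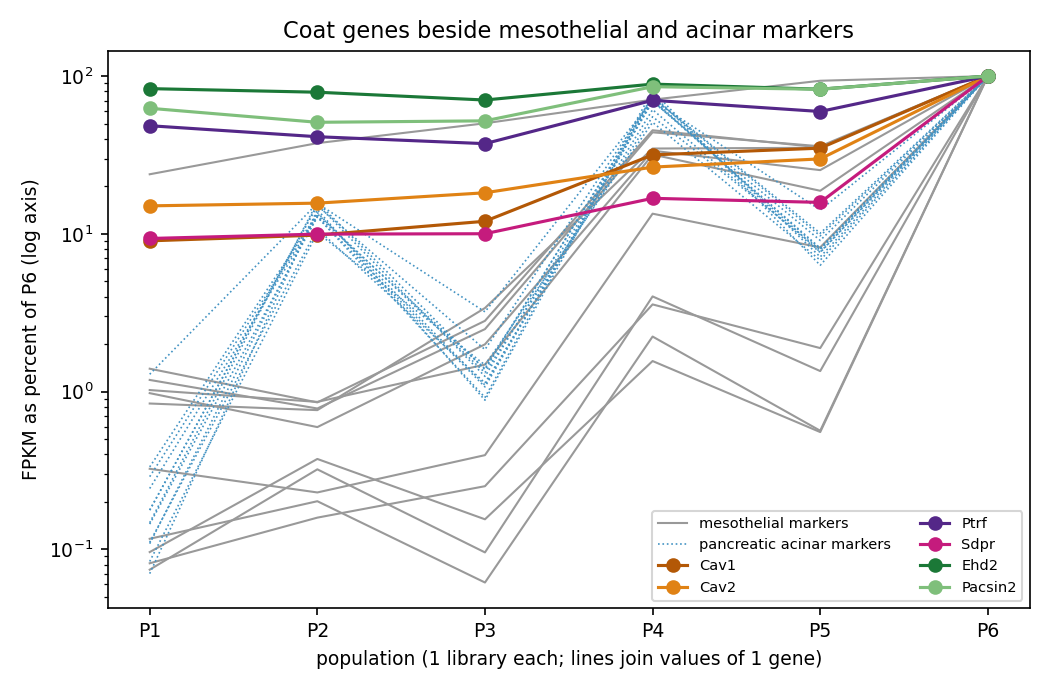
FPKM as a percent of the level in P6 (vertical axis, log scale) in the 6 populations (1 library each) for the coat genes (colored, with points), 11 mesothelial markers (gray) and 12 pancreatic acinar markers (dotted). In P1–P3 the coat genes stay at or above 9.02% of P6, above all gray lines but *Wt1*, and the acinar markers are higher in P2 than in P3 and in P4 than in P5, as *Ptrf* and *Ehd2* are to a much smaller extent.

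Endothelial markers summed to 2.19 FPKM in P1 and 114 FPKM in P6, of which *Kdr* (46.9 FPKM) and *Esam* (62.0 FPKM) were the main part. *Pecam1* was at or below 0.992 FPKM and *Cdh5* at or below 0.343 FPKM in every library. Of 7 adipocyte markers (10 listed) with a mean of at least 1 FPKM, 4 were higher in P6, *Cfd* (114 FPKM), *Adipoq* (14.7 FPKM), *Plin1* (14.4 FPKM) and *Cidec* (8.72 FPKM), and *Lpl* was lower (24.9 FPKM). The shares of all genes were 9.34% higher and 9.33% lower. *Cfd*, *Adipoq* and *Cidec* were at or below 0.785 FPKM in P1–P5 and reached that mean only through P6. Nothing is therefore read from this count. The adipocyte list ranged from 370 (P6) to 593 FPKM (P1) in sum, and *Lep* was listed at 0 in 5 of the 6 libraries. Caveolin and cavin genes are known to be high in adipocytes and endothelial cells too, and the part of these cells was not tested.

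The next counts stand against 9.34% of all genes higher in P6 and 9.33% lower. Of 7 mural markers with a mean of at least 1 FPKM (11 listed), *Acta2* (35.0 FPKM in P6) and *Tagln* (18.5 FPKM) were higher in P6 and 4 were lower. The mural list summed to 77.6 FPKM in P1, 352 FPKM in P5 and 125 FPKM in P6. Of 4 leukocyte markers with a mean of at least 1 FPKM (10 listed), *Csf1r* (11.6 FPKM) and *Cd68* (6.50 FPKM) were higher. The leukocyte list summed to 13.0 (P5) to 48.6 FPKM (P6). Of 10 fibroblast markers, 0 were higher and 5 lower in P6, *Pdgfra*, *Eng*, *Lum*, *Dpt* and *Vcam1*. *Pdgfra* and *Eng* encode CD140a and CD105, on which the populations were sorted, so their values were not independent of the sort. The collagen gene *Col3a1* was listed at 0 in P2 and at 2100 FPKM or more elsewhere, so a listed 0 need not mean an absent transcript; no coat gene was listed at 0.

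Markers of pancreatic acinar cells were high in P6 as well, with 12 of 12 at least 2-fold higher, against 9.34% of all genes. They summed to 4.27, 235, 24.0, 1256, 151 and 1847 FPKM from P1 to P6. Between P4 and P5, where these markers differed widely, the P4 to P5 ratio was 0.906 (0.881 to 0.932) for *Cav1*, 0.887 (0.759 to 1.04) for *Cav2*, 1.18 (1.17 to 1.19) for *Ptrf*, 1.06 (1.03 to 1.09) for *Sdpr*, 1.08 (1.06 to 1.09) for *Ehd2* and 1.04 (0.961 to 1.12) for *Pacsin2*. Between P2 and P3, where they also differed widely, the ratios were 0.817 (0.778 to 0.858) for *Cav1*, 0.860 (0.704 to 1.05) for *Cav2*, 1.11 (1.09 to 1.12) for *Ptrf*, 0.995 (0.963 to 1.03) for *Sdpr*, 1.12 (1.10 to 1.14) for *Ehd2* and 0.979 (0.887 to 1.08) for *Pacsin2*. *Ptrf* and *Ehd2* were thus higher, and *Cav1* lower, in the library with more acinar transcripts in both pairs, beyond counting error. With quantile normalization the log2 difference of *Ptrf* was 0.0095 for P2 over P3 and 0.19 for P4 over P5. That library was also the one with intermediate ALDH activity in both pairs, so acinar content and ALDH gate cannot be told apart within these pairs. P1 had higher ALDH activity than P2 but fewer acinar transcripts. For P1 over P2 the ratios were 1.17 (1.16 to 1.19) for *Ptrf*, 1.05 (1.04 to 1.07) for *Ehd2* and 0.920 (0.871 to 0.972) for *Cav1*. With quantile normalization *Ehd2* was at a log2 difference of -0.005 there. The part of acinar cells or their RNA in the differences of the coat genes was not tested.

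The genes with the pattern most like that of *Cav1* were found by the root mean square difference of centered log2 values over the 6 libraries, among 8693 genes with a mean of at least 5 FPKM. They were *Fbxo33*, an F-box gene (0.090), *Cd2ap*, an actin-linked adaptor gene (0.13), *Ap4e1*, a gene of a vesicle adaptor complex (0.15), *Bcam*, a laminin receptor gene (0.15), and *Lpcat4*, a gene of phospholipid remodeling (0.17). *Fbxo33*, the nearest, had 7.50, 7.79, 10.8, 23.7, 27.9 and 87.2 FPKM from P1 to P6. Its steps thus followed those of *Cav1* closely. Among the same genes *Cav2* came at place 72, *Sdpr* at 91, *Ptrf* at 457, *Pacsin2* at 737 and *Ehd2* at 2546.

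Nearest to the mean profile of the 6 coat genes were *Myo1c*, the gene of a membrane-bound myosin (0.068), *Endod1* (0.070), *Gab1*, a docking adaptor gene of receptor kinases (0.076), *Kif13a*, a kinesin gene (0.078), and *Slc7a1*, a gene of cationic amino acid transport (0.097). *Myo1c* had 37.0, 39.7, 38.0, 68.1, 62.7 and 137 FPKM from P1 to P6. It was near level in P1–P3, with P4 and P5 in the middle and the maximum in P6. Single coat genes departed from this pattern: *Cav1* rose from P1 to P3, *Ptrf* fell, and *Ehd2* had P1 above P5.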

How the data were processed

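RNA of 6 sorted omental stromal populations was sequenced as single-end reads after the NEBNext Ultra library kit, with 1 library each. The authors deposited FPKM values per gene for each library. The submitters' processing notes name TopHat2 2.0.7, Cufflinks 2.1.1 and mm10, without roles; the annotation is not given in the sources used here. Samples were grouped by the population in their labels. Rows sharing a symbol (495 per library, none of a coat gene) were summed. Differences were taken as log2(FPKM + 0.1), which understates those of low genes, over 12053 genes with a mean of at least 1 FPKM, and at least 2-fold was counted. Without replicates no test was run.

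Reads were estimated from FPKM steps of single-transcript genes, assuming fragments of 200 nt. Of low values, 52.4% to 56.9% lay within 0.05 of whole reads, against 10% by chance. The shortest coding transcript of at least 800 nt was used, which widens the intervals of *Cav1*, *Cav2* and *Pacsin2*. *Ptrf*, *Sdpr* and *Ehd2* had 1 coding transcript each, so their intervals were not widened. Depth is thus an estimate, and no count test was run on it. Genes named were the coat genes, their relatives, members of other lists past 2-fold in P6 with at least 5 FPKM in a library (at most 4 each way), members that set a range, marker genes that define a cell type or a gate, and the 5 genes nearest in pattern. *Plvap* levels, *Gapdh* and *Col3a1* were added after their values were seen. Coat genes and lists were chosen with earlier results of these data known. Promoters were from RefSeq (GRCm38.p6), with the first start site of each gene used. Protein sequences were not analysed here, and 1 gene first placed in the cholesterol list is not reported here and was left out of its counts. Alternatives were 4 scalings of libraries, other pseudocounts, no minimum FPKM, the highest row of a shared symbol, and other populations compared. Python 3.11.15 was used with scipy 1.17.1, pandas 2.3.3, numpy 2.4.6 and matplotlib 3.10.9, and procedures were tested on simulated data.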

Additional observations from a re-analysis of the deposited data

Results flagged for a closer look

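*Sdpr* and *Pacsin2* differed in sign between the CD105 classes when intermediate was set against low ALDH activity. For *Sdpr* the log2 difference was -0.0079 for P2 over P3 and 0.086 for P4 over P5, and for *Pacsin2* it was -0.030 and 0.054. All were far within 2-fold, with 1 library per population, and the difference between the classes was not tested. The counting intervals included a ratio of 1 for *Sdpr* in P2 over P3 and for *Pacsin2* in both.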

How the results depend on the processing

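No paired analysis was possible because there was 1 library for each of the 6 populations. The median of the coat genes in P6 over the mean of the others stayed positive and ranged from 1.52 to 1.71 when 1 of the other populations was left out, with 3 to 4 coat genes past 2-fold. The median of P1 over the mean of the others ranged from -0.99 to -0.30, the latter without P6. Near-level medians turned sign: P1 over P2 was -0.024 with a common FPKM sum, and P2 over P3 was 0.022 with the median of ratios and 0.020 after division by *Gapdh*. The order of populations, a count added after the data were seen, held for 3 coat genes after division by *Gapdh* and for 6 with a common FPKM sum and with quantile normalization. Of the values of single coat genes under all alternatives, 337 kept their sign and their side of 2-fold, 15 turned sign while within 2-fold, 4 passed 2-fold (all *Ptrf* in P6) and 4 came within it. The last were *Cav2* in P1 over the mean of the others with *Gapdh* (-0.98) and without P6 (-0.57), *Sdpr* there without P6 (-0.49), and *Cav1* in P3 over P5 with *Gapdh* (-0.998). Of the 5 genes nearest to *Cav1*, 4 were shared with a minimum mean of 1 FPKM and 5 with the median of ratios. With 1 library per population the scatter between mice or sorts is unknown, and depth limits *Cav2*, whose neighboring populations were in part within counting error.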
